A study of Mus musculus with 16 samples.

Results

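The genes examined here encode the acetylcholine receptor of the muscle endplate and proteins known to respond when a fibre loses its nerve. They were 10 named genes, chosen by symbol: Chrna1, Chrnb1, Chrnd, Chrne, Musk, Myog, Myod1, Gadd45a, Runx1 and Ncam1. All 10 had a row among the 14538 gene symbols measured by RNA-seq of mouse tibialis anterior (TA), a fast muscle of the shin. The 16 libraries came from 16 mice, 5 given vehicle, 6 given GDF15 and 5 pair-fed. GDF15, growth differentiation factor 15, is a circulating factor that lowers food intake through a receptor in the hindbrain. Daily rations of the pair-fed mice were set by the preceding intake of the GDF15 group, so that GDF15 against pair-fed asks what GDF15 did beyond eating less, and pair-fed against vehicle asks what eating less did. All mice were male, wild type (WT) and on the C57BL/6J background (C57BL/6 in the labels), and all shared a high-fat, high-fructose NASH diet from 8 weeks of age and housing near 29 °C, 1 mouse to a cage. GDF15 was injected under the skin once daily, with doses of 0.3, 1 or 5 nmol/kg named for the series, and the labels do not say which of these the 6 mice had received. No group was denervated, so there was no positive control for the denervation response.

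At the adult endplate, acetylcholine opens a channel built of alpha, beta, delta and epsilon subunits. In fetal and denervated fibres a gamma subunit, from Chrng, takes the place of epsilon. Nuclei beneath the nerve ending transcribe the subunit genes at a high rate, whereas electrical activity represses them in the rest of the fibre. After denervation that repression is lifted through myogenin (Myog), which binds E-boxes in the subunit promoters, and receptors spread over the whole fibre. MuSK is the kinase through which agrin from the nerve gathers the receptors. Gadd45a, Runx1 and Ncam1 are also known to rise strongly in denervated muscle.

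The promoters of the subunit, Musk and Myog genes are shown because the E-box is the element through which myogenin and MyoD act on these genes. Each window holds the 150 bases before the annotated start, read on the gene's strand from RefSeq on GRCm38.p6. Capitals mark E-boxes (CANNTG) and N-boxes (CCGGAA, an element of synaptic genes), both searched on both strands, and no E-box overlapped an N-box. Chrna1 lies on chromosome 2 (chr2:73580339-73580488, minus strand), Chrnb1 on chromosome 11 (chr11:69795938-69796087, minus strand) and Chrne on the same chromosome (chr11:70619195-70619344, minus strand). Musk lies on chromosome 4 (chr4:58285812-58285961, plus strand) and Myog on chromosome 1 (chr1:134289854-134290003, plus strand).
Chrna1: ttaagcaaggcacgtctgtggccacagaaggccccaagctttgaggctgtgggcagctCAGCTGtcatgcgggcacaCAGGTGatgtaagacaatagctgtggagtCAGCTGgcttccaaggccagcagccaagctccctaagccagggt
Chrnb1: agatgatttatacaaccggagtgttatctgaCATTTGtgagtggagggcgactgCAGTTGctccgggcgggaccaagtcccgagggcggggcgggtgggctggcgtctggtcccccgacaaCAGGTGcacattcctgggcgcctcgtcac
Chrne: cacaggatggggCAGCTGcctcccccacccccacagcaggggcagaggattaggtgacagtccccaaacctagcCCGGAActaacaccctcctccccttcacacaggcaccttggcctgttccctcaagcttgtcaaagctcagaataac
Musk: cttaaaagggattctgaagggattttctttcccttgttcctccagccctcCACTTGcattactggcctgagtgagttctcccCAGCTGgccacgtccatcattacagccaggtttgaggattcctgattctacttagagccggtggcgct
Myog: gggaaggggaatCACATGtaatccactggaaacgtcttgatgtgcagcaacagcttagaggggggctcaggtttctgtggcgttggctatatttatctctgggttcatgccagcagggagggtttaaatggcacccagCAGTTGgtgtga

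Chrna1 held 3 E-boxes, at 92, 73 and 44 bases before its start, and Chrnb1 also held 3, at 119, 96 and 29 bases. The Chrne window held 1 E-box, 138 bases before the start, and 1 N-box, 76 bases before it. Musk held 2 E-boxes, at 100 and 68 bases, and Myog held 2, at 138 and 12 bases. Promoters were found for 7 of the 10 members, and each of the 7 held an E-box in at least 1 window. Chrnd, Myod1 and Ncam1 were not matched. E-boxes are common letters, present in 47.7% of all 32851 windows of this length, and 3 or more of them stood in 3.72%. The N-box stood in 9.23% of all windows, and among the members in those of Chrne, Gadd45a and Runx1.

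The 16 libraries held between 9500527 and 15039280 reads assigned to genes, as estimated from the deposited values. Values are given below as normalized counts, the reads of a gene after scaling of the libraries to each other. Each muscle fibre marker examined (Acta1, Ckm, Myh4, Myh1, Myh2 and Mylpf) was abundant in every library, with at least 9789 normalized counts. In whole muscle, a change in the number of cells of a type and a change of RNA per cell cannot be told apart. A gene was called at an adjusted p under 0.1 together with a log2 fold change above 0.6 in size, with limma and Benjamini-Hochberg adjustment over all 11841 tested genes.

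None of the 10 members was called in any of the 3 comparisons, and all 10 had enough counts to be tested. GDF15 against pair-fed called 0 members where 0.279% of all tested genes were called. GDF15 against vehicle called 0 members against 0.304% of all genes, and pair-fed against vehicle called 0 against 0.819%. On the adjusted p alone, 1 member passed in pair-fed against vehicle (Gadd45a, higher), where 6.37% of all genes passed and 3.2% passed as higher. On the same rule 0 members passed in GDF15 against pair-fed, where 2.17% of genes passed, and 0 in GDF15 against vehicle, where 0.769% passed, 0.431% as higher. The values of 0 members were separated without overlap in GDF15 against pair-fed (1.77% of all genes), of 0 in GDF15 against vehicle (1.65%) and of 1 in pair-fed against vehicle (5.44%). At an unadjusted p under 0.05, 1 member passed in GDF15 against pair-fed (13.2% of all genes), 1 in GDF15 against vehicle (11% of all genes) and 3 in pair-fed against vehicle (18.9% of all genes).

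The median log2 fold change of the 10 members was -0.13 in GDF15 against pair-fed, 0.12 in GDF15 against vehicle and 0.13 in pair-fed against vehicle. Over all tested genes the medians were 0.0025, 0.0008 and 0.0013. Both comparisons with vehicle had 9 members with a positive estimate and 1 with a negative estimate, but they share the 5 vehicle libraries. GDF15 against pair-fed had 4 positive and 6 negative estimates. The 95% interval of the log2 fold change lay wholly within 0.6 of 0 for 5 members in GDF15 against pair-fed, for 5 in GDF15 against vehicle and for 7 in pair-fed against vehicle. For the remaining members the interval reached past 0.6 in at least 1 direction.

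**Figure D1:**
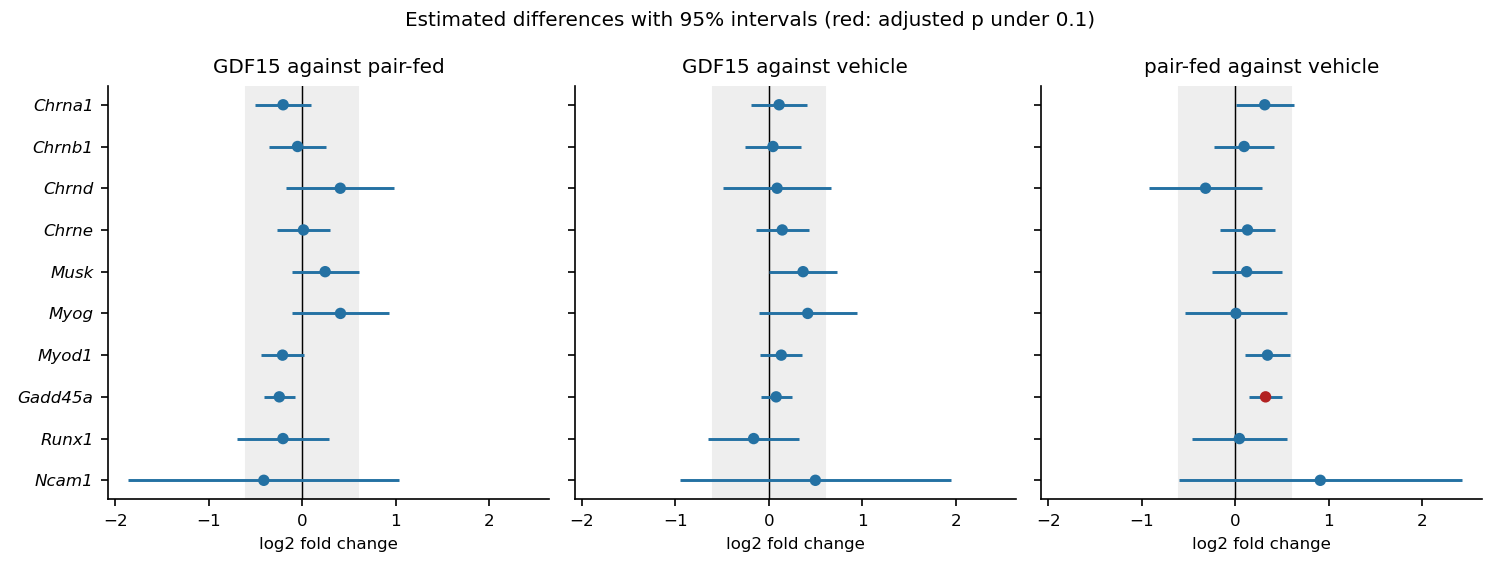
Log2 fold change (horizontal axis) of each of the 10 members in the 3 comparisons, as estimated by limma, with 95% intervals as bars and a grey band from -0.6 to 0.6. Only Gadd45a in pair-fed against vehicle, drawn in red, had an adjusted p under 0.1, and its estimate of 0.33 lies inside the band.

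The RNA of the receptor subunit genes stood at unlike levels. Per kilobase of the longest coding transcript, the vehicle group had 179 ± 24.0 normalized counts of Chrnb1 (SD, n = 5), 123 ± 21.8 of Chrne, 38.9 ± 6.11 of Chrna1 and 18.9 ± 2.37 of Chrnd. The vehicle ranges of Chrne and Chrna1, and of Chrna1 and Chrnd, did not overlap. The full order of the members per kilobase was Gadd45a, Chrnb1, Myod1, Chrne, Chrna1, Myog, Chrnd, Musk, Ncam1 and Runx1. Neighbours whose vehicle values overlapped were Chrnb1 and Myod1, Myod1 and Chrne, Myog and Chrnd, Musk and Ncam1, and Ncam1 and Runx1. Gadd45a headed the order at 238 ± 15.42 per kilobase, and Runx1 closed it at 3.45 ± 0.62. These levels depend on the annotated length, which for several of the genes differs between transcripts.

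Chrna1, the subunit that carries the acetylcholine binding site, read 173, 141, 165, 214 and 161 normalized counts in vehicle mice 1 to 5. The pair-fed mice 2 to 6 had 157, 222, 191, 227 and 277, and the GDF15 mice ranged from 149.6 to 228 with a median of 186. Of the 5 pair-fed values, 4 lay above the vehicle median and 3 above every vehicle value, and all 3 groups overlapped. Pair-fed exceeded vehicle by a log2 fold change of 0.32 (SE 0.15, 95% interval 0.00 to 0.63), with a limma adjusted p of 0.258 and an exact permutation p of 0.103. In GDF15 against pair-fed the estimate was -0.21 (limma adjusted p = 0.567) and -0.11 without pair-fed mouse 6. In GDF15 against vehicle it was 0.11 (limma adjusted p = 0.838), and ran from 0.05 to 0.20 with 1 library left out.

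Chrnb1, the beta subunit, varied little between groups, with 385 ± 51.7 normalized counts in vehicle (SD, n = 5), 405 ± 113 in GDF15 (n = 6) and 412 ± 56.9 in pair-fed mice (n = 5). GDF15 mouse 1 stood highest at 625, while the other values of all groups lay between 301 and 471. Without that mouse the estimate for GDF15 against vehicle turned from 0.05 to -0.09. The log2 fold changes of Chrnb1 were -0.05, 0.05 and 0.10 in GDF15 against pair-fed, then GDF15 against vehicle, then pair-fed against vehicle. Their limma adjusted p ran from 0.790 to 0.950. With 1 library left out, pair-fed against vehicle ran from 0.01 to 0.17.

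Chrnd, the delta subunit, had the widest spread of the 4 subunit genes. Vehicle mice 1 to 5 had 50.1, 59.7, 48.5, 65.4 and 54.3 normalized counts, and the GDF15 mice ranged from 41.3 to 78.6 with a median of 59.1. Pair-fed mice 2 to 6 had 18.6, 44.0, 50.6, 44.9 and 89.1. The pair-fed group therefore held both the lowest and the highest value of all 16 mice. GDF15 against pair-fed gave a log2 fold change of 0.41 (SE 0.27, limma adjusted p = 0.555), which moved between 0.11 and 0.65 as single libraries were left out and was 0.11 without pair-fed mouse 2. Pair-fed against vehicle gave -0.32 (limma adjusted p = 0.604), and -0.02 without pair-fed mouse 2.

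Chrne, the adult epsilon subunit, had 198 ± 35.3 normalized counts in vehicle (SD, n = 5), 218 ± 32.1 in GDF15 (n = 6) and 218 ± 46.0 in pair-fed mice (n = 5). Values ran from 154 to 246, from 191 to 276 and from 184 to 297, so the groups overlapped widely. The log2 fold changes were 0.01, 0.14 and 0.13 in the order used above, with limma adjusted p from 0.666 to 0.985, and each 95% interval lay within 0.6 of 0. With 1 library left out, GDF15 against vehicle ran from 0.06 (without vehicle mouse 2) to 0.23 (without vehicle mouse 4), and pair-fed against vehicle from 0.02 (without pair-fed mouse 6) to 0.21 (without vehicle mouse 4). The fetal counterpart Chrng was nearly undetected, at 0 to 8.04 normalized counts, and was listed at 0 in 0 of 5 vehicle, 2 of 6 GDF15 and 1 of 5 pair-fed libraries. It fell below the minimum of 10 normalized counts and was not tested. Per kilobase, the ratio of Chrna1 to Chrne, which compares 2 subunits of the adult receptor within each mouse, was 0.32 ± 0.03 in vehicle, 0.31 ± 0.04 in GDF15 and 0.37 ± 0.05 in pair-fed mice. The ratio of Chrna1 to Chrnd was 2.08 ± 0.30, 2.13 ± 0.49 and 3.42 ± 1.38, and that of Chrne to Chrnd was 6.54 ± 1.11, 6.79 ± 1.16 and 9.78 ± 5.44. The ratio of Chrne to Chrnd ran from 6.09 to 19.3 over the pair-fed mice, and the ratios were not tested.

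**Figure D2:**
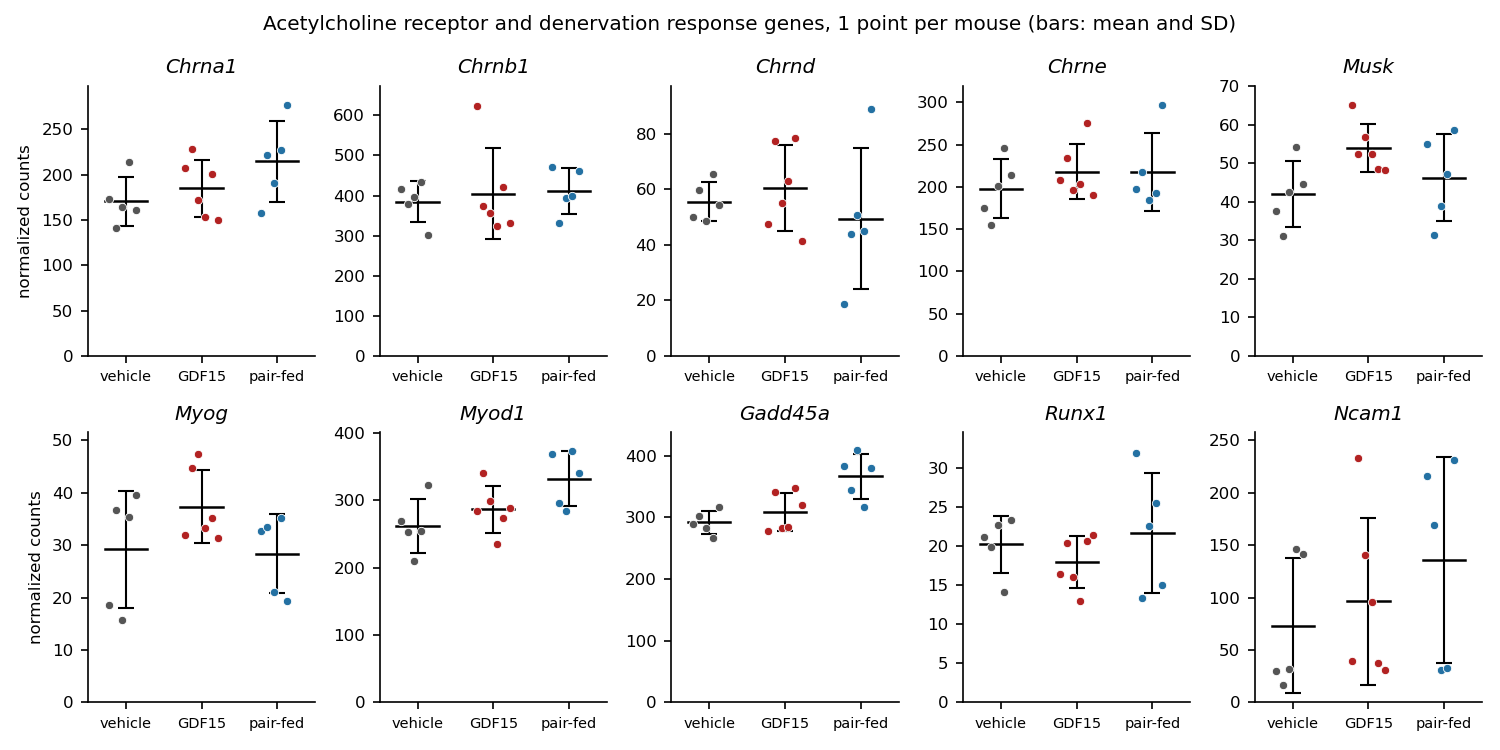
Normalized counts (vertical axis, from 0) of each of the 10 members, with 1 point per mouse in the vehicle (n = 5), GDF15 (n = 6) and pair-fed (n = 5) groups, the mean as a line and the SD as a bar. Gadd45a is the member whose pair-fed points all stand above the vehicle points, and Ncam1 has low and high mice within every group.

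Musk, the receptor kinase that organises the endplate, was somewhat higher in GDF15-treated mice, without passing the adjusted threshold. Vehicle mice 1 to 5 had 37.6, 31.1, 42.6, 54.4 and 44.7 normalized counts, the GDF15 mice ranged from 48.3 to 65.1 with a median of 52.4, and pair-fed mice 2 to 6 had 55.0, 31.5, 39.0, 47.1 and 58.8. All 6 GDF15 values lay above the medians of both other groups, and vehicle mouse 4 overlapped them. GDF15 against vehicle gave a log2 fold change of 0.37 (SE 0.17, 95% interval 0.01 to 0.73), with an exact permutation p of 0.0260 and a limma adjusted p of 0.436. The estimate was 0.24 against pair-fed mice (limma adjusted p = 0.574) and 0.12 for pair-fed against vehicle (limma adjusted p = 0.767). With 1 library left out, these ran from 0.12 (without pair-fed mouse 3) to 0.34 and from 0.02 (without vehicle mouse 2) to 0.25 (without pair-fed mouse 3).

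Myog encodes myogenin, the factor that activates the subunit promoters after denervation. It read 18.6, 36.8, 15.7, 35.4 and 39.7 normalized counts in vehicle mice 1 to 5 and 32.8, 33.4, 21.1, 35.2 and 19.3 in pair-fed mice 2 to 6. The GDF15 mice ranged from 31.4 to 47.5 with a median of 34.3. Low values occurred in 2 vehicle and 2 pair-fed mice and in 0 GDF15 mice, and the groups overlapped. The log2 fold change was 0.41 in GDF15 against pair-fed (SE 0.25, limma adjusted p = 0.508, exact permutation p = 0.113) and 0.42 in GDF15 against vehicle (limma adjusted p = 0.574, exact permutation p = 0.199). Without vehicle mouse 3 the latter was 0.23. About 14.96 to 47.37 reads per library lay behind these values.

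Myod1, which encodes MyoD, was highest in pair-fed mice. Vehicle mice 1 to 5 had 269.5, 253, 209.8, 254 and 323 normalized counts, pair-fed mice 2 to 6 had 368, 295, 283, 373 and 341, and the GDF15 mice ranged from 235 to 340.3 with a median of 286. All 5 pair-fed values exceeded the vehicle median, and vehicle mouse 5 lay among them. Pair-fed against vehicle gave a log2 fold change of 0.35 (SE 0.11, 95% interval 0.11 to 0.58), with an exact permutation p of 0.0317 and a limma adjusted p of 0.102, just outside the threshold of 0.1. Over 27 alternative settings that adjusted p ran from 0.0586 to 0.224 and was under 0.1 in 7. GDF15 against pair-fed gave -0.21 (limma adjusted p = 0.414), and GDF15 against vehicle gave 0.13 (limma adjusted p = 0.707). The latter ran from 0.06 to 0.21 with 1 library left out.

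Across the 16 mice, with group means removed, Myog correlated most with Myod1 (Pearson r = 0.55, permutation p = 0.0530, adjusted p = 0.477 over 9 relations). Spearman's rho of the same pair was 0.43 (permutation p = 0.144, adjusted p = 0.936), and r was 0.50 without the 2 mice farthest from the median of Myog, vehicle mice 1 and 3. Without removal of the group means r of this pair was 0.35. With the promoters' E-boxes in mind, the subunit genes and Musk are set beside it, although no promoter was matched for Chrnd. Their r with Myog was -0.06 for Chrna1, -0.30 for Chrnb1, -0.11 for Chrnd, -0.08 for Chrne and -0.05 for Musk, with adjusted permutation p from 0.661 to 0.951. Spearman's rho had the other sign for Chrnd (0.18), Chrne (0.05) and Musk (0.12), so no direction is read from these. No relation passed the correction. For Ncam1, whose values lay far apart within every group, r was 0.37 (permutation p = 0.210, adjusted p = 0.661) and rho was 0.29.

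Gadd45a, a growth arrest and DNA damage gene that is known to rise in denervated and fasted muscle, was the member with the clearest difference. Vehicle mice 1 to 5 had 289.8, 303, 282, 267 and 316 normalized counts, and pair-fed mice 2 to 6 had 383, 343, 409, 317 and 380.1. The GDF15 mice ranged from 278 to 348 with a median of 302. Every pair-fed value stood above every vehicle value, although the lowest pair-fed mouse (316.6) and the highest vehicle mouse (316.0) nearly met. Pair-fed mice rose above vehicle by a log2 fold change of 0.33 (SE 0.08, 95% interval 0.15 to 0.50), a 1.25-fold difference, with a limma adjusted p of 0.0388. The exact permutation p was 0.00794, the smallest that 5 mice against 5 allow. It was not called, since its estimate is below 0.6. Over 27 alternative settings the adjusted p ran from 0.0320 to 0.111 and was under 0.1 in 26, among them all 16 that left out 1 library.

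In GDF15-treated mice, whose intake had set that of the pair-fed mice, Gadd45a did not differ detectably from vehicle (log2 fold change 0.08, 95% interval -0.09 to 0.25, limma adjusted p = 0.784). All 6 GDF15 values lay below the pair-fed median. The estimate for GDF15 against pair-fed was -0.25 (SE 0.08, 95% interval -0.41 to -0.08), with an exact permutation p of 0.0346 and a limma adjusted p of 0.168. GDF15 therefore missed the adjusted threshold against both other groups. Gadd45a lies on the minus strand of chromosome 6 (67035096 to 67037457 in GRCm38) and overlaps a transcript of the opposite strand, E230016M11Rik, in the annotation. The same holds for Runx1 with Gm26626 and for Ncam1 (chromosome 9, 49502136 to 49798925) with Gm11149, and the strand setting of the counting is not given in the sources used here.

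Runx1, a transcription factor that protects denervated fibres from wasting, stood at the low end of the tested range. It had 20.2 ± 3.64 normalized counts in vehicle (SD, n = 5), 18.0 ± 3.33 in GDF15 (n = 6) and 21.6 ± 7.64 in pair-fed mice (n = 5), which corresponds to about 9.71 to 33.7 reads per library. The log2 fold changes were -0.21, -0.16 and 0.05, with limma adjusted p from 0.747 to 0.945. With 1 library left out, GDF15 against pair-fed ran from -0.36 (without pair-fed mouse 3) to -0.06 (without pair-fed mouse 2), and GDF15 against vehicle from -0.28 (without vehicle mouse 4) to -0.08 (without GDF15 mouse 4). Both the highest value, 31.9, and a value of 13.3, close to the lowest of 13.0, were in pair-fed mice.

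Ncam1, the neural cell adhesion molecule, which marks denervated fibres, satellite cells and the Schwann cells of the nerve, spread more than any other member. In vehicle mice 1 to 5 it read 30.4, 17.1, 31.6, 146 and 141 normalized counts, and in pair-fed mice 2 to 6 it read 216, 169, 30.6, 32.6 and 231. GDF15 mice 1 to 6 had 39.1, 233, 141, 95.9, 37.6 and 31.3. In 8 mice it read 17.1 to 39.1, and in the other 8 it read 95.9 to 233, with a 2.45-fold gap between the sets. High values occurred in 2 of 5 vehicle, 3 of 6 GDF15 and 3 of 5 pair-fed mice, so that the split ran within each group. The gap was the widest between neighbouring sorted values, and whether the mice form separate sets was not tested. The SD of Ncam1 within groups was 1.33 on the log2 scale, rank 37 of 11841 tested genes, where the median of all genes was 0.17. Its estimates were accordingly wide: 0.91 in pair-fed against vehicle (95% interval -0.60 to 2.43, limma adjusted p = 0.543), 0.50 in GDF15 against vehicle (-0.95 to 1.95, adjusted p = 0.854) and -0.41 in GDF15 against pair-fed (-1.86 to 1.04, adjusted p = 0.839). With 1 library left out they ran from 0.53 (without vehicle mouse 2) to 1.32 (without pair-fed mouse 4) in pair-fed against vehicle. The ranges were 0.12 to 0.87 (without vehicle mouse 2 and 4) in GDF15 against vehicle and -0.82 to -0.10 (without pair-fed mouse 4 and 6) in GDF15 against pair-fed.

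Among the members, the within-group SD was 0.50 for Chrnd, 0.43 for Myog and 0.36 for Runx1 on the log2 scale, and 0.13 for Gadd45a and 0.19 for Myod1. Ncam1 stood at the 99.4th percentile of 500 genes of like level, Chrnb1 at the 94.8th and Chrnd at the 91.4th. Gadd45a stood at the 48.2nd percentile of genes of like level. The range over all 16 mice was 13.6-fold for Ncam1 and 1.53-fold for Gadd45a.

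**Figure D3:**
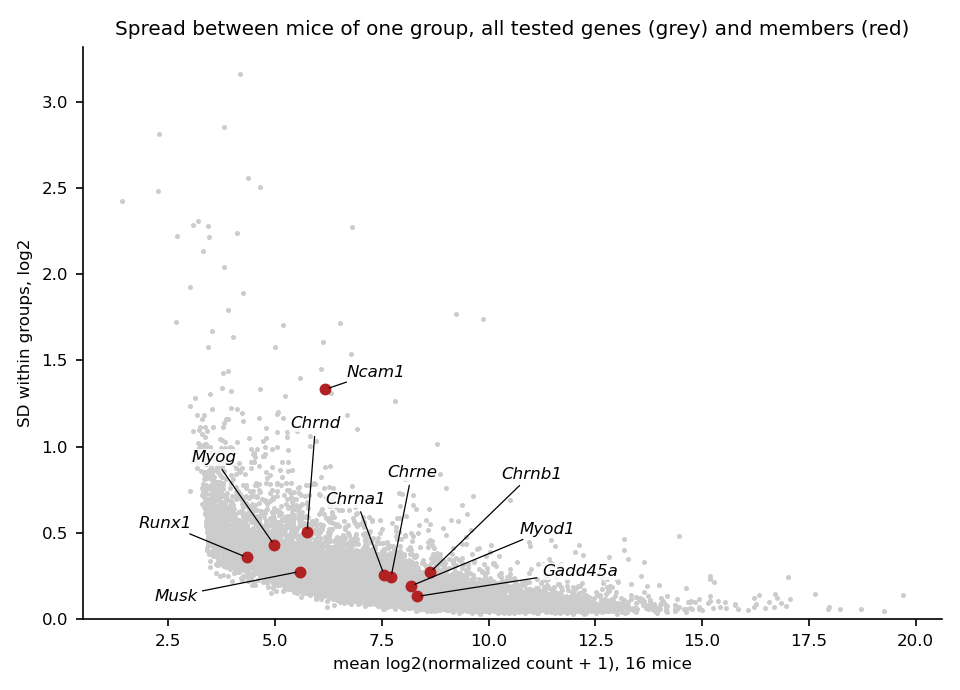
SD within groups (vertical axis, log2) against mean log2(normalized count + 1) over 16 mice (horizontal axis), with all 11841 tested genes in grey and the 10 members in red. Ncam1 at 1.33 stands far above the bulk of genes of its level, and Gadd45a at 0.13 lies within it.

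Further genes of the neuromuscular junction gave the context of the receptor genes. Of 17 listed, 15 were tested, with Chrng and Erbb4 below the minimum, and 0 were called by limma in each comparison. At an unadjusted p under 0.05, 2, 3 and 1 of the 15 passed in GDF15 against pair-fed, then against vehicle, then in pair-fed against vehicle, beside 13.2%, 11% and 18.9% of all genes. On the adjusted p alone 0 rose in GDF15 against pair-fed, where 0.929% of all tested genes did, and 0 passed in either direction in any comparison. The values of Rapsn did not overlap between GDF15 and pair-fed mice, 1 of 15 tested, where 1.77% of all tested genes did not overlap. Positive estimates were found for 8, 8 and 6 of the 15, and the medians were 0.03, 0.02 and -0.03 on the log2 scale in GDF15 against pair-fed, then GDF15 against vehicle, then pair-fed against vehicle.

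Rapsn, which encodes rapsyn, the scaffold that binds the receptor, had 429 ± 38.6 normalized counts in GDF15, 361 ± 20.1 in pair-fed and 374 ± 30.8 in vehicle mice. Its log2 fold change was 0.24 in GDF15 against pair-fed (limma adjusted p = 0.107) and 0.20 in GDF15 against vehicle (limma adjusted p = 0.283). Over 27 alternative settings the limma adjusted p of the first ran from 0.0892 to 0.247. It was under 0.1 in 2 of them, with a minimum mean of 50 and without vehicle mouse 3, and both thresholds were passed in 0. Dok7, the adaptor that activates MuSK, had 336 ± 63.0, 264 ± 28.8 and 275 ± 55.4 in the same groups, with estimates of 0.33 (limma adjusted p = 0.284) and 0.29 (limma adjusted p = 0.429). Lrp4, the agrin receptor that binds MuSK, had 132 ± 29.3 in pair-fed and 173 ± 21.2 in vehicle mice (log2 fold change -0.40, limma adjusted p = 0.146). Agrn, which encodes agrin, had estimates of -0.17, -0.20 and -0.03, with limma adjusted p from 0.551 to 0.921. With 1 library left out, its estimate in GDF15 against vehicle ran from -0.28 to -0.12.

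Of 20 further denervation genes, 19 were tested, with Gdf5 below the minimum. In GDF15 against pair-fed and in GDF15 against vehicle 0 of the 19 were called, and in pair-fed against vehicle 2 fell and 0 rose, where 0.819% of all tested genes were called. At an unadjusted p under 0.05 the counts were 3, 2 and 6 of the 19, beside 13.2%, 11% and 18.9% of all genes. On the adjusted p alone 3 fell, Kcnn3, Tnfrsf12a and Mef2c, and these were also the 3 whose pair-fed and vehicle values did not overlap. Over all genes 6.37% passed on the adjusted p and 5.44% did not overlap. The medians over the 19 were -0.01, -0.14 and 0.04 on the log2 scale in the order used above. Positive estimates were found for 9, 8 and 11 of the 19 in that order. Both called genes are known to rise in denervated muscle, whereas here they were lower in pair-fed mice. Dach2, known to fall on denervation, was also lower there without being called, so no direction is read for the list.

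Kcnn3, a calcium-activated potassium channel that reappears in fibres without a nerve, read 31.5, 34.2, 51.9, 36.3 and 34.3 normalized counts in vehicle mice 1 to 5. Pair-fed mice 2 to 6 had 27.8, 24.4, 24.1, 14.9 and 21.1, all below the vehicle group, and the GDF15 mice ranged from 24.5 to 39.8. The log2 fold change in pair-fed against vehicle was -0.72 (SE 0.20, limma adjusted p = 0.0509). It lost the call without vehicle mouse 3 (-0.61), without pair-fed mouse 5 (-0.59) and without pair-fed mouse 6 (-0.71), and also on the deposited log2 values (-0.16). The limma adjusted p on those values was 0.0553, and their scale shrinks the fold changes of low genes. Kcnn3 passed both thresholds in 21 of 26 alternative settings. GDF15 against pair-fed gave 0.55 (limma adjusted p = 0.201) and GDF15 against vehicle -0.17 (limma adjusted p = 0.805), and -0.05 without vehicle mouse 3.

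Tnfrsf12a, the receptor of the cytokine TWEAK, had 178 ± 19.7 normalized counts in vehicle, 101 ± 27.6 in pair-fed and 159 ± 95.3 in GDF15 mice. The lowest vehicle value was 159 and the highest pair-fed value 144. Pair-fed against vehicle gave -0.84 (SE 0.26, limma adjusted p = 0.0791). The call was lost in 9 of the 16 fits that left out a library, namely each fit without 1 of the 5 vehicle mice and those without pair-fed mouse 2, 4, 5 or 6, in which the estimate ran from -0.88 to -0.75. It was also lost without the trend option (limma adjusted p = 0.128) and on the deposited log2 values (-0.35, limma adjusted p = 0.124). Both thresholds were passed in 16 of 27 alternative settings. GDF15 against pair-fed gave 0.55 (limma adjusted p = 0.346), and 0.29 without GDF15 mouse 3, the highest of its group.

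Mef2c, a muscle transcription factor that acts with the myogenic factors, was lower in pair-fed mice by a log2 fold change of -0.16 (SE 0.05, limma adjusted p = 0.0747), and its estimate in GDF15 against vehicle was -0.17 (limma adjusted p = 0.141). Its adjusted p in pair-fed against vehicle was under 0.1 in 18 of 27 alternative settings. Endothelial markers (Pecam1, Cdh5, Kdr and Tek) were lower beside it, with 0 of 4 estimates positive in both comparisons with vehicle. The medians were -0.19 in pair-fed and -0.20 in GDF15 mice. Of these 4 markers 0 and 1 were called, where 0.819% and 0.304% of all genes were. Their sums ranged from 4132 to 4971 normalized counts in vehicle, from 3475 to 4284 in GDF15 and from 3642 to 4404 in pair-fed mice, and their part in the value of Mef2c was not tested. Dach2, a repressor of Myog that is known to fall on denervation, had 160 ± 22.4 normalized counts in vehicle, 108 ± 51.7 in GDF15 and 79.9 ± 42.0 in pair-fed mice. Its log2 fold change in pair-fed against vehicle was -1.19 (SE 0.39), with a limma adjusted p of 0.105, under 0.1 in 10 of 27 alternative settings. In the same mice Myog had an estimate of 0.01. Hdac4, the deacetylase that represses Dach2 after denervation, was 616 ± 153 in vehicle and 485 ± 61.7 in GDF15 mice (log2 fold change -0.32, limma adjusted p = 0.338), and the estimate was -0.19 without vehicle mouse 1. Hdac9 had 0.40 in GDF15 against pair-fed (limma adjusted p = 0.152), and Myf6, the factor MRF4 of mature fibres, had estimates between -0.04 and 0.05 with limma adjusted p from 0.778 to 0.971.

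**Figure D4:**
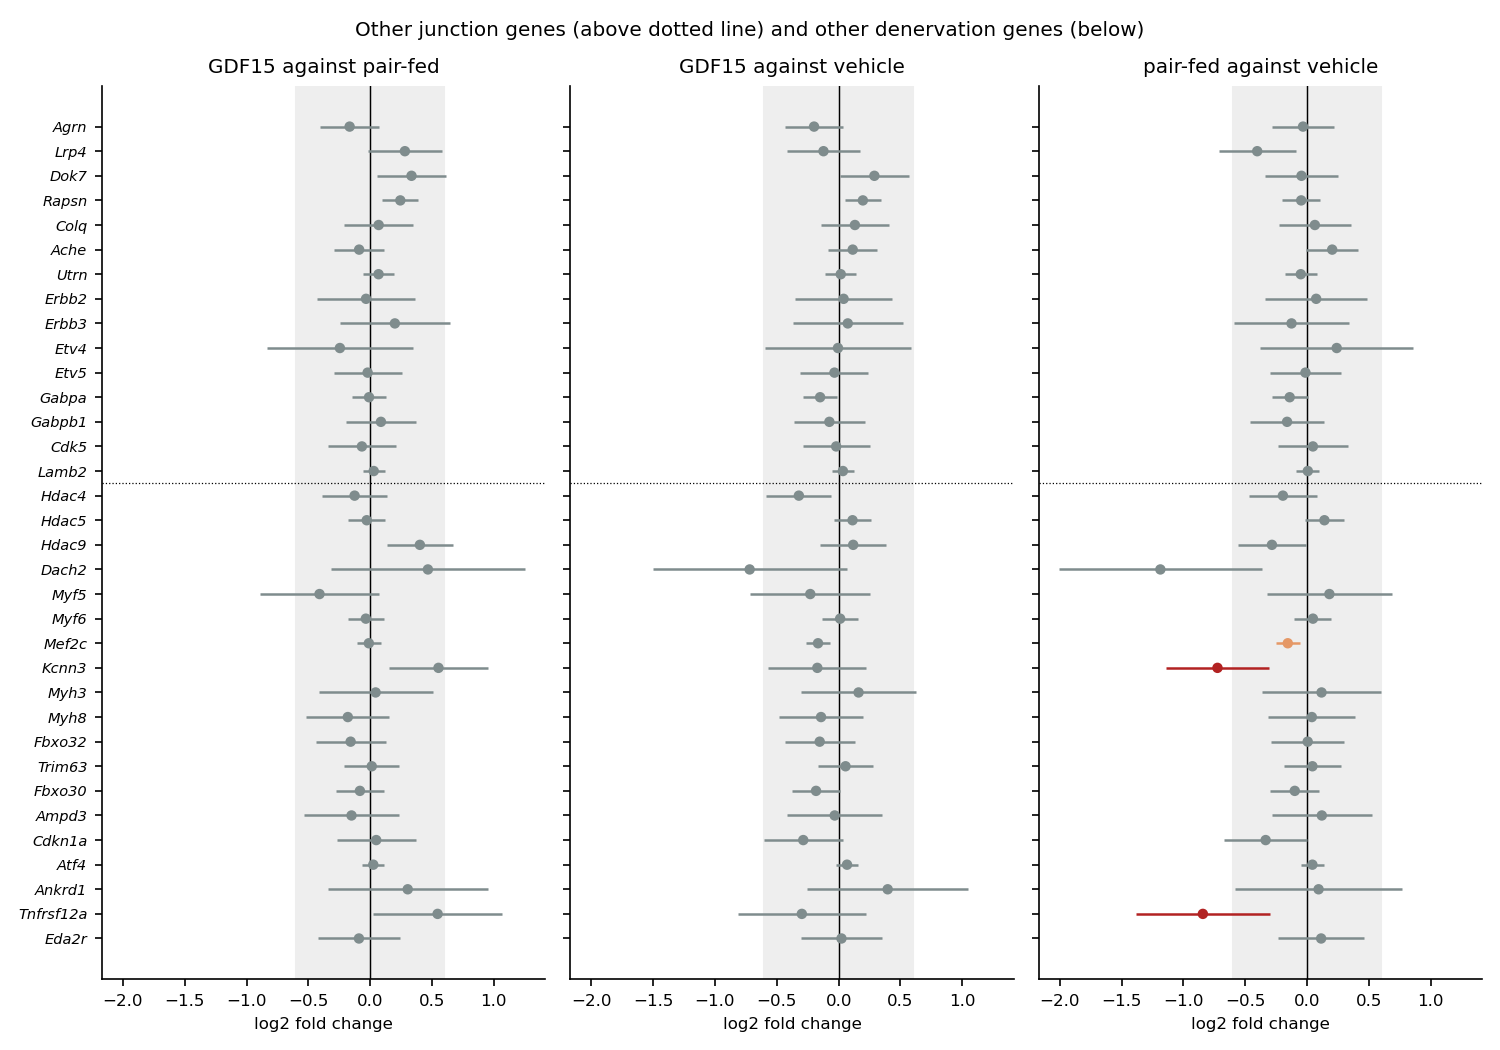
Log2 fold change with 95% intervals of the 15 tested further junction genes (above the dotted line) and the 19 tested further denervation genes (below it) in the 3 comparisons, with a grey band from -0.6 to 0.6. Genes past both thresholds are red (Kcnn3 and Tnfrsf12a in pair-fed against vehicle) and Mef2c, past the adjusted p alone there, is orange.

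Markers of the other cells that express some members were read beside them. The summed Schwann cell markers (S100b, Sox10, Mbp and Egr2) ranged from 228 to 363 normalized counts in vehicle, from 262 to 416 in GDF15 and from 135 to 410.4 in pair-fed mice, and 0 of 4 were called in each comparison. In pair-fed against vehicle 0 of the 4 had a positive estimate, with a median of -0.29. Satellite cell markers (Pax7, Myf5, Calcr, Cdh15 and Vcam1), of cells that also express Myod1 and Ncam1, summed to 377 to 461, 392 to 470 and 392 to 445, and 0 of the 4 tested were called. Summed leukocyte markers ranged from 404 to 678 in vehicle and from 285 to 652 in pair-fed mice. Between these groups 0 of 5 estimates were positive and 1 was called, where 0.819% of all genes were. In GDF15 against pair-fed 5 of 5 estimates were positive (median 0.61, 0 called). Adipocyte markers had 4 of 4 positive estimates in GDF15 and in pair-fed against vehicle, with 0 called. Fibroblast markers had 5 of 5 positive estimates in GDF15 against pair-fed (median 0.35) and 1 of 5 in pair-fed against vehicle (median -0.16). Red blood cell markers had 3 of 3 tested estimates positive in GDF15 against pair-fed (median 1.17) and against vehicle (median 1.24). Of both types 0 were called. Of 6 muscle fibre markers, 4 had positive estimates in pair-fed against vehicle (median 0.13). Among these 6, 1 was called and 2 passed on the adjusted p alone, where 0.819% and 6.37% of all genes did. The part of these cells in the values of the members was not tested.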

How the data were processed

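RNA was measured in 16 libraries of mouse TA muscle, 1 per mouse, grouped by the treatment label. Libraries were made with a directional kit. Per the submitters' processing notes, the authors used Trim Galore, Salmon, DESeq2 and mm10, and their versions, the annotation, the strand setting and the filter on rows are not given in the sources used here. The authors deposited 1 table of log2 values, variance stabilized and scaled by DESeq2, for 14538 symbols. The deposited log2 values were transformed back to normalized counts with the inverse of that transformation, whose only parameter was taken from the lowest value, 7.32. Whole reads could not be recovered. In genes with 1 annotated transcript, 82.3% to 95.7% of low values per library lay within 0.1 of a whole multiple of the worth of 1 read (0.837 to 1.33 normalized counts), against 21.1% to 26.7% in genes with more than 4 transcripts. That worth gave the approximate depths. Depth sets the counting error of the low members, such as Myog and Runx1.

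The 11841 genes that averaged 10 normalized counts or more were tested with limma 3.58.1 in R 4.3.3 (lmFit, contrasts.fit, and eBayes with its trend option) on log2(normalized count + 1), all 3 groups in the fit. The pseudocount of 1 makes fold changes of low genes slightly too small. P-values are two-sided, adjusted by Benjamini-Hochberg over all tested genes, and the thresholds of 0.1 and 0.6 are those of the study's methods for this muscle. Single members were also compared by exact permutation tests, which with 5 against 5 and 5 against 6 mice allow 252 and 462 divisions. These exact p-values were not adjusted for the number of members and comparisons, and they are printed for some members only. Correlations used 100000 resamples within groups (Python 3.11.15, scipy 1.17.1). Scripts were tested on simulated data.

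The members and the further lists were chosen with earlier results of these data known. Named genes are all members in all comparisons, 8 chosen partners (Chrng, Lrp4, Dok7, Rapsn, Agrn, Hdac4, Dach2 and Myf6), each listed gene past both thresholds, and the gene of smallest p in each list and comparison; Tnfrsf12a, Mef2c and others fall under these, and Erbb4 and Gdf5 are named only as untested. Some genes first placed on these lists are not reported here, and counts are over the rest. Lengths are from GENCODE vM21 and promoters from RefSeq. Alternatives changed the pseudocount, filter, scaling, trend, weights, thresholds and libraries used.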

Additional observations from a re-analysis of the deposited data

Results flagged for a closer look

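In 63 groups of libraries, 3 treatment groups for each of 21 named genes, 3 mice stood apart from their group by Dixon's criterion, which chance meets in about 1 of 20 groups. No member was among them. Lrp4 was low in vehicle mouse 1 at 136 normalized counts, where the next vehicle value was 177. Kcnn3 was high in vehicle mouse 3 at 51.9, where the next was 36.3, and its call in pair-fed against vehicle was lost without that mouse. Tnfrsf12a was high in GDF15 mouse 3 at 351, where the next was 136.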

How the results depend on the processing

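The count of called members stayed at 0 in all 3 comparisons under every alternative run, except that on the adjusted p alone it was 1 in pair-fed against vehicle. Under the rule of both thresholds, 782 of 801 alternative estimates for members kept their direction and their call, and 19 changed sign, each of an estimate near 0. The counts over all genes (33, 36 and 97 in GDF15 against pair-fed, then GDF15 against vehicle, then pair-fed against vehicle) became 257, 91 and 754 on the adjusted p alone, 18, 23 and 56 at an adjusted p under 0.05 with the same fold, and 7, 9 and 17 on the deposited log2 values, whose scale shrinks the fold changes of low genes. Leaving out 1 library gave 15 to 62, 21 to 38 and 60 to 157.

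No pairing by mouse number was seen in the values. Over 14 pairs with the same number the correlations of deviations ran from -0.10 to 0.07, and 0 were over 0.1. The labels do not say whether the numbers follow the matching of rations, so these correlations cannot exclude a pairing in the design. With the number as a replicate block, 20 genes were called in GDF15 against vehicle, the adjusted p of Gadd45a in pair-fed against vehicle was 0.111, Kcnn3 lost its call there with a like fold (-0.73, adjusted p 0.123), Dach2 gained one (0.0959), and the estimates of Myf6 in GDF15 against vehicle (-0.0042) and of Dok7 (0.042) and Agrn (0.042) in pair-fed against vehicle changed sign. Myog in pair-fed against vehicle was -0.0034 on the deposited values and -0.061 with array weights. Without removal of group means, the correlation of Myog was 0.021 with Chrnd, 0.013 with Chrne, 0.20 with Musk and -0.11 with Runx1, all of opposite sign, and fell to 0.35 with Myod1.

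With 1 library left out, estimates in pair-fed against vehicle ran from -0.18 to 0.14 for Myog, from -0.11 to 0.19 for Runx1, from -0.10 to 0.047 for Agrn and from -0.10 to 0.067 for Dok7. In GDF15 against vehicle they ran from -0.027 to 0.046 for Myf6 and from -0.087 to 0.10 for Chrnb1, and in GDF15 against pair-fed from -0.18 to 0.0043 for Chrnb1, from -0.058 to 0.13 for Chrne and from -0.031 to 0.027 for Mef2c. The cause of these changes was not tested. At a minimum mean of 50, Musk, Myog, Runx1 and Kcnn3 have no value. Between 5 and 6 mice a group and low counts limit what can be detected, most of all for Ncam1, Chrnd, Myog and Runx1.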
